A study of Mus musculus with 8 samples.

Results

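The interferon-stimulated genes are a set of 33 genes known to be switched on when cells sense interferons. They were taken by gene symbol from a fixed list, and 31 of the 33 have a row in the deposited table of 19703 genes. Ifit3 and Gbp6 were not analysed here. Of the 31, 28 had a mean normalized count of at least 10 and were tested, together with 11083 genes in all. The other 3 (Rsad2, Oasl2 and Ifi44) were too low to test and are described by their values.

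The cells were regulatory T cells (Tregs), a suppressive CD4 lineage defined by FOXP3, titled WT (wild type) in all samples and purified from mice of the strain Foxp3-GFP, whose green fluorescent reporter marks that factor. Both groups received stimulating beads against CD3 and CD28 plus the cytokines IL6, IL23 and IL1B, and RNA was taken on day 6. The groups differ by FcCD70, a soluble form of CD70, which is the ligand of the costimulatory receptor CD27. The labels name 4 samples titled untreated and 4 titled FcCD70, numbered 1 to 4 in each, and columns for 7 of these 8 were analysed (untreated 1 to 4, FcCD70 1 to 3). In every one of the 8 samples the treatment field contradicts the title. Titles and column names set the groups used below, and every direction holds only if those are right. The FcCD70 library numbered 4 was rebuilt from the authors' mean over 8 libraries, and its values are given as rebuilt and stay out of the main test. The 7 libraries held 18159685 to 23527899 reads assigned to genes. The labels do not tell whether numbered samples stand for separate mice or cultures, so a p-value reflects only how these libraries vary, and that variation may be technical. All cells had been through the same Th17-favouring culture, and no library of fresh or interferon-treated Tregs was analysed here.

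Interferons act through surface receptors and the JAK kinases. Type I interferons assemble a complex that includes STAT2 and IRF9 and binds the interferon-stimulated response element in gene promoters. Interferon gamma acts mainly through gamma-activated sites and induces IRF1 and the guanylate-binding proteins. In T cells these programs shape antiviral defence and the balance between effector and regulatory function.

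The promoters of the members show which of them carry the letters of these elements. RefSeq promoters (GRCm38.p6, 250 bases before to 50 bases after each start) were at hand for 23 of the 31 measured members. The core of the response element, searched on both strands as GAAA, any 2 bases and GAAA again, occurred in 13 of the 23, against 3.44% of all 32851 promoters. The core of the gamma-activated site, TTCNNNGAA, occurred in 7 of the 23 (8.30% of all promoters), and 4 members held both. For both motifs a member counted if any of its listed promoters held a match, while the background counts each promoter singly. The shares are therefore not in the same unit. The motifs are distinct and could overlap. In 7 members (Cmpk2, Ifi44, Irf7, Irf9, Oasl1, Oasl2 and Trim25) neither was found within this window. A match describes letters, not a bound site. The windows below are printed 5′ to 3′ on the strand of the gene, with a single match in capitals. The windows of Gbp3 and Isg15 also hold further, overlapping matches that are left partly in lower case. The first 6 hold the response element core in members that range from the highest level in these cells (Gbp2) to one of the lowest (Rsad2), and the last pair hold the gamma-activated site core. Their positions on GRCm38 are chr3:142620579-142620638 (Gbp2), chr3:142559974-142560033 (Gbp3), chr10:128270251-128270310 (Stat2), chr5:120777700-120777759 (Oas3), chr4:156200850-156200909 (Isg15), chr12:26456538-26456597 (Rsad2), chr11:53769899-53769957 (Irf1) and chr7:78913326-78913384 (Isg20), with Oas3, Isg15 and Rsad2 on the minus strand.
Gbp2: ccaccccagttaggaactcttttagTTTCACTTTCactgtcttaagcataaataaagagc
Gbp3: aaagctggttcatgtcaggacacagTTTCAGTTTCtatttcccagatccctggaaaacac
Stat2: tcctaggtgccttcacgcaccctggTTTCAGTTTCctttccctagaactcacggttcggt
Oas3: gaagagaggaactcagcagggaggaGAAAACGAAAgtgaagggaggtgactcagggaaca
Isg15: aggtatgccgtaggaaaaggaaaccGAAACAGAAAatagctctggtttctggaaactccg
Rsad2: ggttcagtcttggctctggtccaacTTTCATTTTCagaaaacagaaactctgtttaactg
Irf1: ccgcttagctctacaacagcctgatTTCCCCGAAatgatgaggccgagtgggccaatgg
Isg20: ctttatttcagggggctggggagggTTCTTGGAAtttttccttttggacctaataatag

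The members were expressed over a wide range in these Tregs. On the scale of normalized counts per kilobase of annotated exon, averaged over the 7 libraries, Gbp2 stood first with 2383, a guanylate-binding GTPase of cell-autonomous defence. Irf1 (662), a transcription factor induced by interferon gamma, and Bst2 (655), which tethers budding virus particles to the membrane, came next. Between the 2 the ranges over libraries overlapped, at 589.8 to 752 for Irf1 and 487 to 826 for Bst2, so their order is within the spread. Gbp3 (584), Parp9 (520), Parp14 (503), Trim25 (495), Ifit2 (463), Gbp7 (429), Gbp4 (412) and Zbp1 (391) followed, each with a range that overlapped that of its neighbour.

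Several genes often used as reporters of type I interferon lay far lower on the same scale. Isg15, a ubiquitin-like modifier, had 99.2 per kilobase, Irf7, the factor that amplifies interferon production, 73.2, and Usp18, which removes ISG15 and dampens the receptor, 68.5. Ifit1, which binds foreign RNA ends, had 23.5, Mx1, a dynamin-like antiviral GTPase, 12.4, and Rsad2, the radical enzyme viperin, 2.03. The lowest levels were those of Oasl2 (1.41) and Ifi44 (0.0408). Ifit1 and Ifit2 belong to the same family on chromosome 19, yet Ifit2 had 393 to 530.1 per kilobase over the libraries and Ifit1 20.48 to 29.4, with no overlap.

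**Figure D1:**
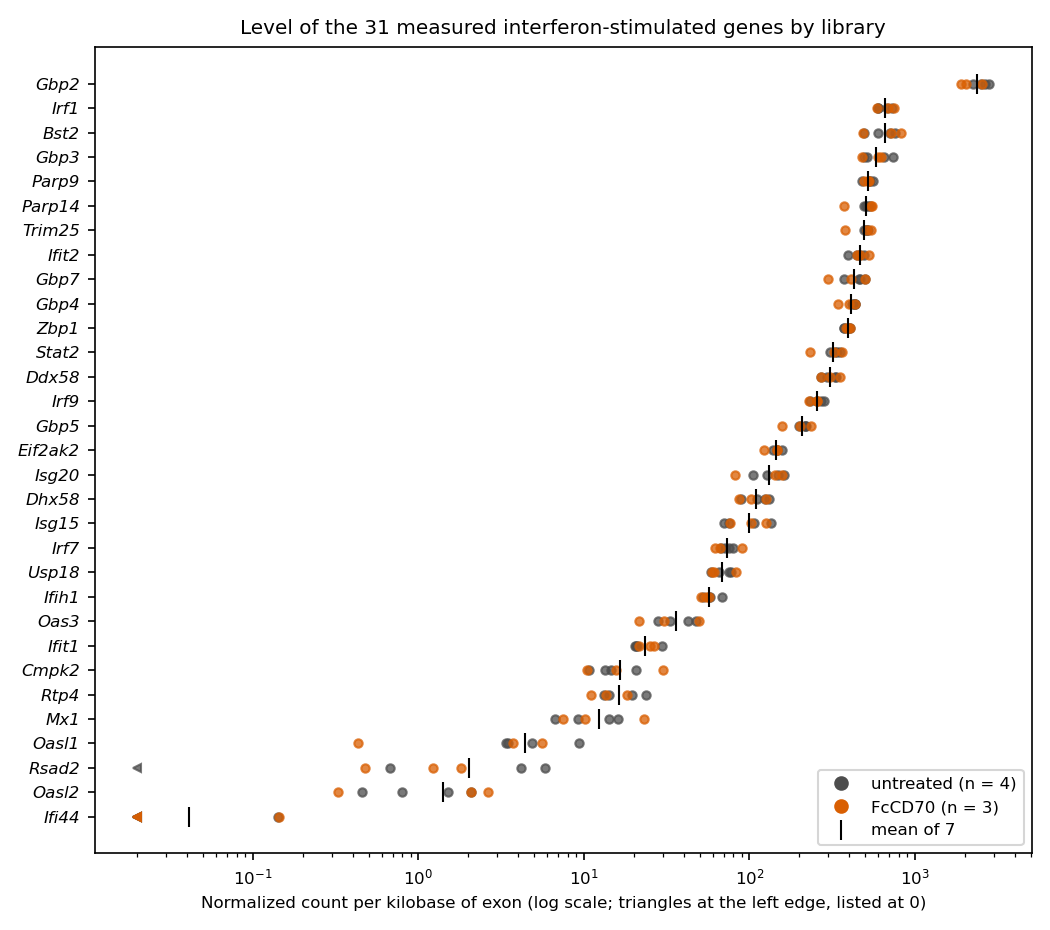
Normalized count per kilobase of exon (log axis) of the 31 measured interferon-stimulated genes in 4 untreated libraries (grey) and 3 FcCD70 libraries (orange), with the mean of 7 as a bar. Gbp2 lies highest at 2383, Rsad2, Oasl2 and Ifi44 lowest, and grey and orange points are mixed in every row.

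FcCD70 was not accompanied by a detectable change in any member. By limma, 0 of the 28 tested members passed an adjusted p of 0.05, which was also the share over all genes (0.00% of 11083), and 0 had an unadjusted p under 0.05 (1.70% of all genes). The median log2 fold change, FcCD70 minus untreated on log2(value + 1), was -0.06 over the members and -0.00351 over all genes tested. Of the members 20 lay below 0 and 8 above, and of all genes 5640 below and 5443 above. The groups overlapped in all 28 members, and over all genes they did not overlap in 2.53%. The 95% interval of the fold change lay within 2-fold either way for 26 of 28 members (85.5% of all genes) and within 1.5-fold for 21 (64.7%). Changes beyond 2-fold were therefore not within the interval for those 26, while smaller ones could not be resolved. In bulk RNA, fewer cells with a transcript and less of it per cell cannot be told apart. In the authors' deposited table, covering 8 libraries, the adjusted p of DESeq2 was under 0.05 for 0 of 14728 genes.

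The same-numbered pairs did not share a direction. The median difference over the 28 members was 0.00977 in pair 1, -0.14 in pair 2 and 0.02 in pair 3, and 0.04 in pair 4, which uses the rebuilt library. The lowest median was that of the pair numbered 2, where 18 of 28 members lay below 0 (5571 of 11083 over all genes). In pairs 1 and 3, 13 of 28 members each lay below 0 (5542 and 5513 of all genes). Ifih1 and Gbp2 were lower with FcCD70 in 3 of 3 pairs (9.61% of all genes were), and Isg15 was higher in 3 of 3 (9.03% of all genes).

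**Figure D2:**
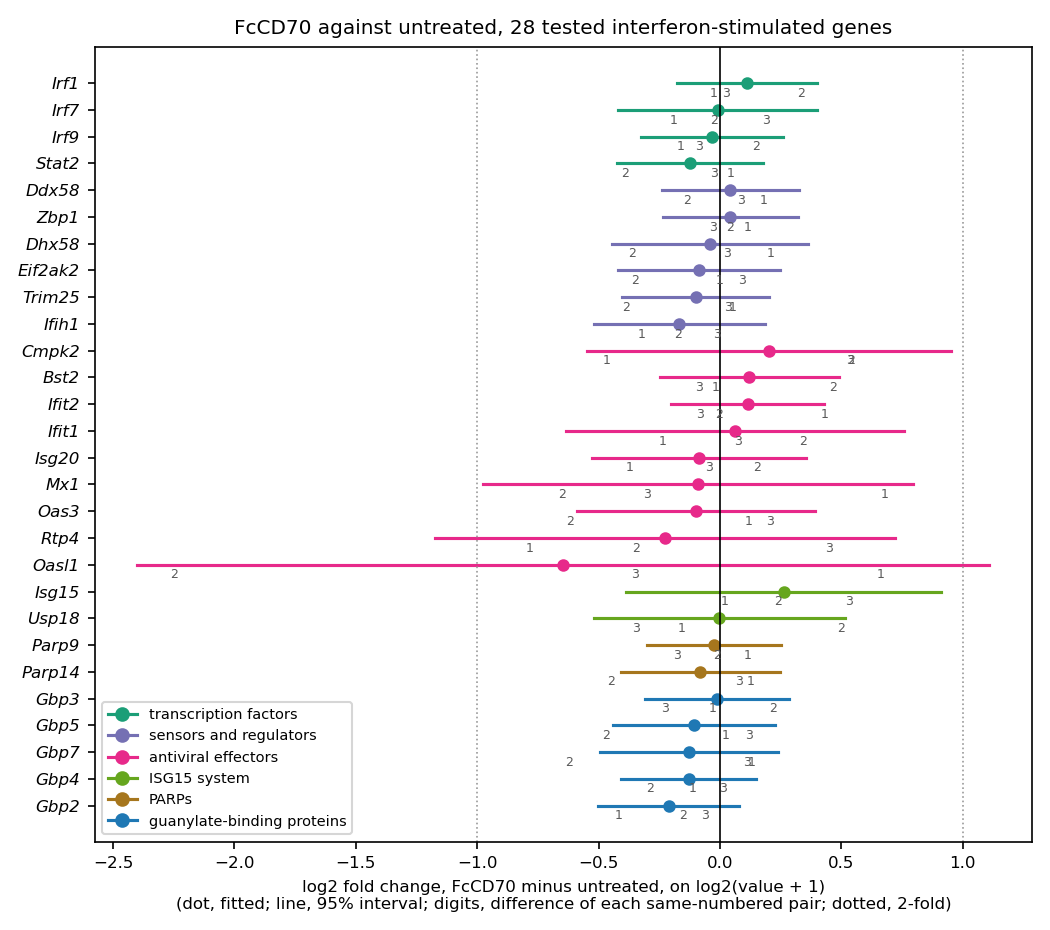
Fitted log2 fold change, FcCD70 minus untreated (dot), with its 95% interval (line) and the difference of each same-numbered pair (digits), for 28 tested members coloured by role. Every interval crosses 0, and Rtp4 and Oasl1, both of low count, reach beyond 2-fold.

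The 4 transcription factors of the set showed no change past the threshold. Irf9 (ENSMUSG00000002325), the DNA-binding subunit of the type I complex, had normalized counts of 1372, 1246, 1464 and 1520 in the untreated libraries numbered 1 to 4 and of 1226, 1383 and 1379 in the FcCD70 libraries numbered 1 to 3. These values overlapped, and the log2 fold change was -0.03 (SE 0.13). Stat2 (ENSMUSG00000040033), another subunit of that complex, had 2079, 1805, 1947 and 2011 untreated and 2146, 1376 and 1914 with FcCD70. The single low Stat2 value was that of FcCD70 2, and the fitted log2 fold change was -0.12 (SE 0.13, 95% interval -0.43 to 0.18).

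Irf1 (ENSMUSG00000018899, chromosome 11, 53770014 to 53778374, GRCm38), whose promoter holds the gamma-activated site core, had 2383, 2368, 2704 and 2885 normalized counts untreated and 2345, 2990 and 2750 with FcCD70. Each group spanned nearly the same range, and the log2 fold change was 0.11 (SE 0.13). Irf7 (ENSMUSG00000025498, chromosome 7, 141262706 to 141266481) had 268, 253, 300.1 and 285 untreated and 235, 249 and 342 with FcCD70. Its group means were 277 ± 20.3 (SD, n = 4) and 276 ± 58.1 (SD, n = 3), and its log2 fold change was -0.00815 (SE 0.18). The exons of Irf7 share 45 bases with Phrf1 on the opposite strand, 1.19% of its exon length.

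Sensors of foreign nucleic acid and their regulators were near level as well. Ddx58 (RIG-I) and Ifih1 (MDA5) sense viral RNA, Dhx58 (LGP2) tunes them, Trim25 is a ubiquitin ligase of that pathway, Zbp1 senses Z-form nucleic acid, and Eif2ak2 (PKR) halts translation on double-stranded RNA. Their log2 fold changes ran from -0.17 (Ifih1) to 0.04 (Ddx58), and 0 of 6 passed. Ifih1 (ENSMUSG00000026896) had 558, 470.2, 465 and 429 normalized counts untreated and 446, 418 and 462 with FcCD70. The untreated library numbered 1 was the highest and the others lay close together in both groups (log2 fold change -0.17, SE 0.16, 95% interval -0.52 to 0.19). Zbp1 varied least of all members across the 7 libraries, with a coefficient of variation of 3.56% (1319 to 1438 normalized counts), against a median of 13.8% over the 28 members and 14.6% over all genes tested.

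The antiviral effectors had the highest median coefficient of variation of the role groups, 27.4%. They include members of low count, such as Oasl1 (mean 11.5, coefficient 61.7%) and Mx1 (46.9, 46.7%), while Ifit2 (1818) had 9.11%. The part of count level in this spread was not tested. Of the 9 tested effectors 0 passed, with log2 fold changes from -0.64 (Oasl1, 95% interval -2.40 to 1.11) to 0.20 (Cmpk2, a mitochondrial nucleotide kinase). Ifit1 (ENSMUSG00000034459) had 78.1, 55.5, 54.4 and 54.8 normalized counts untreated and 66.3, 70.8 and 57.3 with FcCD70. Its untreated library numbered 1 was the highest of all and the groups overlapped (log2 fold change 0.06, SE 0.31). Ifit2, its family member, had 1543 to 1929 untreated and 1758 to 2082 with FcCD70. Rtp4, an interferon-induced chaperone, had 28.2 to 50.6 and 23.6 to 38.8, and 13.9% of its exon bases are shared with the transcript Gm45338.

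The 3 members below the test's limit held few reads, 65 for Rsad2, 63 for Oasl2 and 2 for Ifi44 over the 7 libraries, where 3 reads in a library correspond to 2.61 to 3.37 normalized counts. Rsad2 (ENSMUSG00000020641) was listed at 0, 18.2, 2.91 and 25.2 untreated and at 2.07, 7.86 and 5.29 with FcCD70, and at 29.5 in the rebuilt library. The untreated library numbered 4 and the rebuilt library with the same number were the highest. Oasl2, an OAS-like protein, was listed at 13.2, 5.05, 2.91 and 9.57 untreated and at 2.07, 16.8 and 13.2 with FcCD70. Ifi44 had 2 reads in all over the 7 libraries, in the untreated library numbered 4 and the FcCD70 library numbered 3. Rsad2 and Oasl2 overlapped between the groups, and for Ifi44 a change was not detectable at this depth.

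In the ISG15 system, Isg15 (ENSMUSG00000035692, chromosome 4, 156199424 to 156200818) had 57.2, 80.7, 53.4 and 103 normalized counts untreated and 58.0, 95.5 and 77.6 with FcCD70. The untreated values alone covered the whole range, and the log2 fold change was 0.26 (SE 0.29, 95% interval -0.39 to 0.91). Usp18 (ENSMUSG00000030107) had 184, 163, 216 and 209 untreated and 165, 231 and 169 with FcCD70. Its log2 fold change was -0.00178 (SE 0.23). The groups of Usp18 overlapped almost completely.

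The ADP-ribosyltransferase family members Parp9 and Parp14, which modulate interferon signalling, had log2 fold changes of -0.02 and -0.08. Parp14 had 4601 to 5011 normalized counts untreated, and 5023, 3457 and 5128 with FcCD70. The FcCD70 library numbered 2 was thus the only one below 4601 for Parp14. Parp9 stayed between 2334 and 2723 in the 7 libraries. It is transcribed opposite Dtx3l, with which it shares 9.40% of its exon bases.

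All 5 measured guanylate-binding protein genes had a negative log2 fold change, from -0.21 to -0.01, and 0 of 5 passed. The direction turned for 3 of the 5 when libraries were left out: without those numbered 2, Gbp5 had 0.0721 and Gbp7 0.12, and without those numbered 3, Gbp3 had 0.0952. They are paralogs (Gbp2, Gbp3, Gbp5 and Gbp7 on chromosome 3, Gbp4 on chromosome 5) whose similar reads can be split between genes, so each gene's count is uncertain, as it is within the Ifit and Oas families. Gbp2 (ENSMUSG00000028270, chromosome 3, 142620602 to 142638008) had the smallest unadjusted p of all members. Its normalized counts were 6327, 5667, 6661 and 7085 untreated and 4741, 5106 and 6378 with FcCD70. The pair of lowest values were both FcCD70 libraries, but the FcCD70 library numbered 3 lay within the untreated range. The group means were 6435 ± 598 (SD, n = 4) and 5408 ± 859 (SD, n = 3), the log2 fold change was -0.21 (SE 0.13, 95% interval -0.50 to 0.08), and limma's adjusted p was 0.9998. Gbp2 was also lower in the rebuilt FcCD70 library (5841) than in the untreated library numbered 4. In the authors' deposited table its unadjusted DESeq2 p was 0.0353, the only member under 0.05 there, at an adjusted p of 0.999989, while 1.45% of all 14728 genes with a p were under 0.05. With the rebuilt library added, limma covers the same 8 libraries as that DESeq2 result and is not independent of it. In that limma fit the unadjusted p of Gbp2 was under 0.05, alone among the 28 members (2.77% of all genes). Over the alternatives, the adjusted p of Gbp2 ran from 0.273 (without the libraries numbered 2) to 0.999993.

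Gbp4 (ENSMUSG00000079363) had 3238, 3122, 3205 and 3233 normalized counts untreated and 2998, 2559 and 3237 with FcCD70. Its untreated values lay close together and the lowest belonged to the FcCD70 library numbered 2 (log2 fold change -0.13, SE 0.12). Gbp3, Gbp5 and Gbp7 had log2 fold changes of -0.01, -0.11 and -0.13. For Gbp7, 11.3% of the exon bases are shared with a pseudogene.

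Genes upstream of the members were expressed. A list of 42 genes of interferon signalling and sensing had 40 with a row and 32 tested. With limma 0 of the 32 passed, 13 lay above and 19 below 0, and the median log2 fold change was -0.02. Ifngr1, the ligand-binding chain of the interferon gamma receptor, had normalized counts of 20406, 18867, 22008 and 21476 untreated and of 22564, 18990 and 24823 with FcCD70. Its groups overlapped, with a log2 fold change of 0.11 (SE 0.15). Its partner Ifngr2 had 932, 1014, 1071 and 1003 untreated and 1201, 1187 and 1074 with FcCD70. The 3 FcCD70 values all lay above the untreated ones, by a small margin (1074 against 1071). The log2 fold change was 0.20 (95% interval -0.11 to 0.50, limma's adjusted p = 0.9998). Groups did not overlap for 2 of the 32 tested genes of this list, Ifngr2 and Tmem173, against 2.53% of all genes. Ifnlr1, too low to test, did not overlap either, at 2.02 to 7.77 untreated and 0 to 1.04 with FcCD70. Of the type I receptor chains, Ifnar1 had 4425, 4145, 3988 and 3549 untreated and 4576, 3171 and 4179 with FcCD70. Ifnar2 had 1069.6, 1017, 1111 and 1154 untreated and 1160, 987 and 1232 with FcCD70. Both overlapped between the groups.

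Irf4, a factor of activated T cells and of Th17 cells, had the smallest p of the signalling list, with 801 to 1197 untreated and 690 to 1022 with FcCD70. Its log2 fold change was -0.32 (95% interval -0.63 to -0.01) and its limma adjusted p 0.9998. Tlr9, the sensor of unmethylated DNA, was low, at 29.7, 16.1, 12.6 and 11.3 untreated and 21.8, 1.12 and 9.70 with FcCD70, with overlap.

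Interferon transcripts themselves were scarce. Ifnb1, Ifna4, Ifne and Ifnk were listed at 0 in all 7 libraries. Ifng was listed at 0, 9.08, 16.5 and 24.4 normalized counts in the untreated libraries and at 7.25, 6.74 and 5.29 in the FcCD70 libraries. The untreated group spanned the FcCD70 values, and Ifng was too low to test.

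A list of 80 further interferon-inducible genes had 62 with a row and 57 tested, of which 0 passed between the groups by limma. Of these 57, 28 lay above and 29 below 0, with a median log2 fold change of -0.0042. The smallest p values belonged to Ifitm3, a restriction factor of virus entry, with 6.60 to 36.6 normalized counts untreated and 11.2 to 31.7 with FcCD70, and to Mx2, with 8.07 to 18.3 and 0 to 13.5. Both genes were low and their groups overlapped.

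The replicate number was a further axis along which members could differ. The labels do not say what a number marks. Limma's F test across the 4 numbers, with treatment in the model, called 0 of 28 members, against 0.135% of all genes (15 of 11083). At an unadjusted p under 0.05 it took 2 of 28 members (7.14%) and 8.02% of all genes, so the members' share was near the background. In the untreated group the libraries numbered 3 and 4 both lay above those numbered 1 and 2 for 17 of 28 members (30.5% of all genes) and both below for 4 (29.4%). The FcCD70 library numbered 3 also lay above those numbered 1 and 2 in 9 members (14.4% of all genes) and below in 2 (14.6%). This way of counting was chosen after the values were seen, and the members' levels share the same libraries.

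Oas3, the synthetase that activates RNase L, had the smallest p between numbers. Its normalized counts were 198 and 215 in the libraries numbered 1 (untreated, then FcCD70), 233 and 152 in those numbered 2, 302 and 348 in those numbered 3, and 334 in the untreated library numbered 4, with 332 in the rebuilt one. The numbers 3 and 4 were high and 1 and 2 low in both groups (limma F test, adjusted p = 0.581). Isg20, an exonuclease of viral RNA, had 196 and 151 at number 1, 237 and 264 at number 2, 300.1 and 291 at number 3, and 275 at number 4, with 352 rebuilt (adjusted p = 0.619). Isg20 thus had its 2 lowest values at number 1. Bst2 had 446 and 440.2 at number 1, 539 and 746 at number 2, 688 and 648 at number 3, and 635 at number 4, with 693 rebuilt (adjusted p = 0.631). The libraries numbered 1 were again the lowest. Mx1 went the other way, with 53.9 and 87.0 at number 1, 60.5 and 38.2 at number 2, 35.0 and 28.2 at number 3, and 25.2 at number 4, with 31.4 rebuilt (adjusted p = 0.752).

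Outside the members, Socs1, the feedback inhibitor of JAK kinases (counted in both pathway lists), had 490 and 412 normalized counts at number 1, 397 and 459 at number 2, 969 and 938 at number 3, and 669 at number 4, with 676 rebuilt. Numbers 3 and 4 stood above 1 and 2 in both groups (limma F test, adjusted p = 0.110). Igtp, an immunity-related GTPase induced by interferon gamma, had 2142 to 2506 in the 4 libraries numbered 1 and 2 and 3309 to 3494 in the 3 numbered 3 and 4 (adjusted p = 0.246). Ifit1bl1, a paralog of Ifit1, had 1746 to 2068 and 2689 to 2874 (adjusted p = 0.246). With the rebuilt library added, limma called Socs1 and Ifit1bl1 between numbers, and 0 of 28 members, against 1.06% of all genes. Between numbers, DESeq2 (7 libraries, recovered reads) called Socs1 (adjusted p = 0.000116) and Gbp2b (adjusted p = 0.0382), against 2.20% of all genes. Limma without the libraries numbered 1, with 1 residual degree of freedom, also called Socs1 and Gbp2b, against 0.713% of all genes. In both fits 0 of 28 members were called. With limma over the 7 libraries 0 of the 57 tested further inducible genes passed, and 9 (15.8%) had an unadjusted p under 0.05, against 8.02% of all genes.

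**Figure D3:**
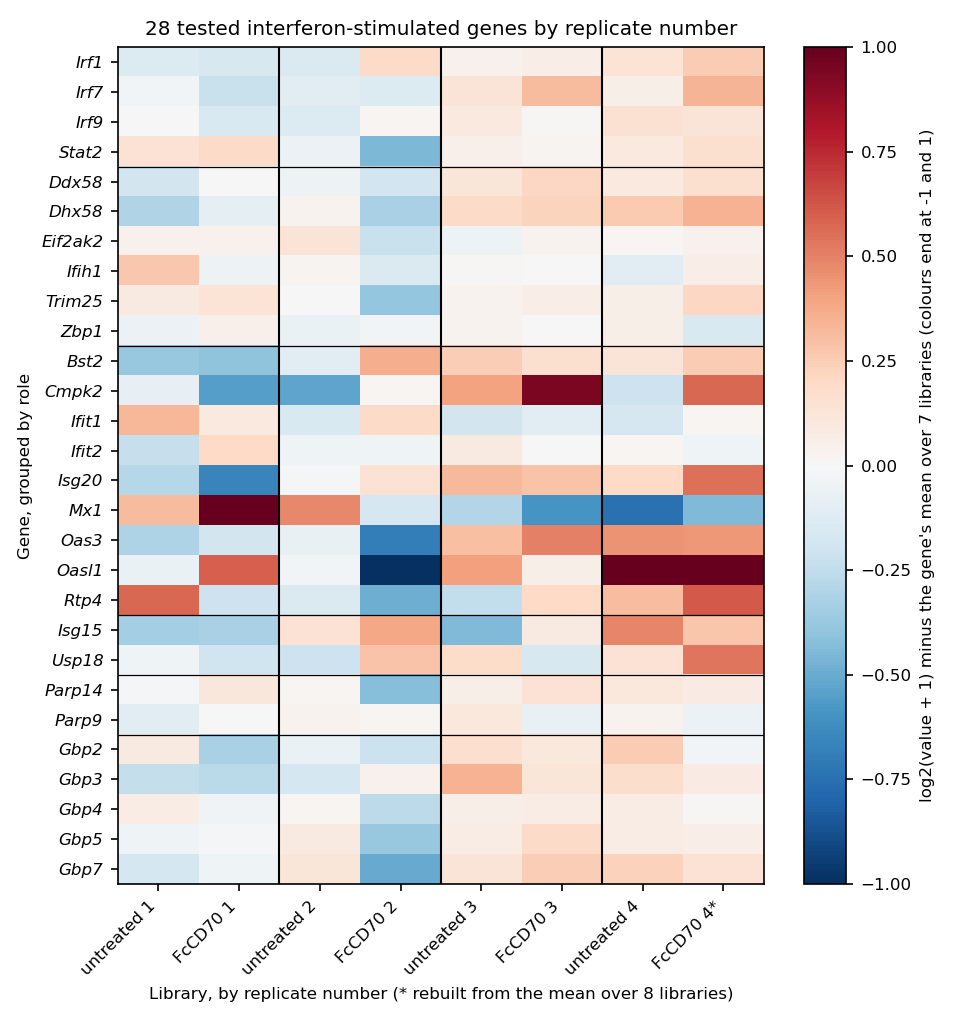
Difference of log2(value + 1) from the gene's mean over 7 libraries, for 28 tested members grouped by role and libraries ordered by replicate number (the last is rebuilt). Oas3, Isg20, Irf7 and Dhx58 are higher at numbers 3 and 4, Mx1 is lower there, and FcCD70 2 holds the lowest value of 13 members.

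**Figure D4:**
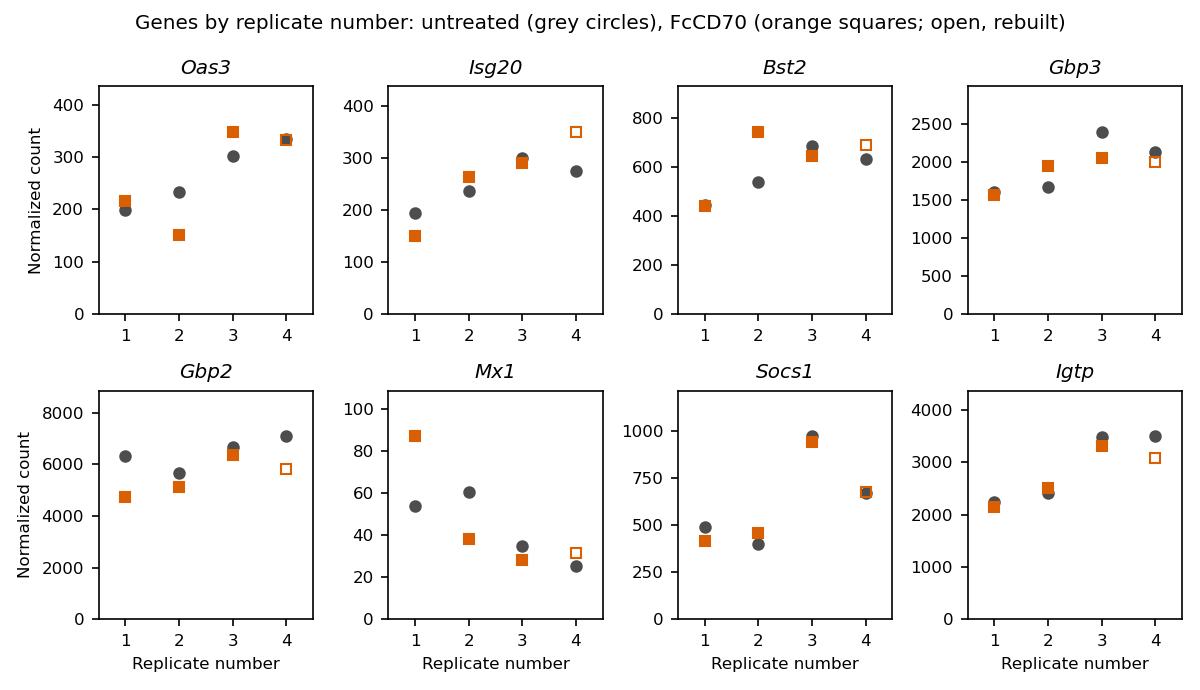
Normalized counts (axes from 0) by replicate number for 6 members and for Socs1 and Igtp, untreated as grey circles, FcCD70 as orange squares (open, rebuilt). Socs1 and Igtp are higher at numbers 3 and 4 in both groups, and so is Gbp3, by a small margin with FcCD70. Bst2 is higher there in the untreated group only, and its highest value is that of FcCD70 2.

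The FcCD70 library numbered 2 stood apart from the others. It held the lowest value of the 7 libraries for 13 of 28 members (28.4% of all genes) and the highest for 3, Irf1, Bst2 and Usp18 (27.3% of all genes). The FcCD70 library numbered 1 was the lowest for 8 members (18.1% of all genes) and the highest for 4 (18.7%). Of the 14 members with more exon bases than the members' median, 10 lay below the mean of the other 6 libraries in FcCD70 2 and 4 above (median difference -0.28). Of the 14 others, 8 lay below and 6 above (median -0.0394). The difference between this library and the mean of the other 6, on the log2(value + 1) scale, was -0.80 for Oas3, -0.58 for Gbp7, -0.53 for Stat2 and -0.50 for Parp14, and 0.45 for Isg15, 0.42 for Bst2 and 0.34 for Usp18. Oasl1 (-2.65, with 1.12 normalized counts in this library) and Rtp4 (-0.57), which are among the shorter members, were low as well. Irf1 was high (0.22), and its 3976 exon bases lie just above the members' median of 3951.5. Over the 28 members this difference had a Spearman rho of -0.48 with exon length, and over the 11076 tested genes with a gene model one of -0.46. These points share a library, and the rho is a description. In the other 6 libraries the rho over members lay between -0.35 and 0.42. The part of transcript length in the differences between the groups was not tested.

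Without this library and with no replicate block, the log2 fold changes of 13 of 28 members had the opposite sign, and 0 passed. In that fit the log2 fold change was 0.05 for Stat2, 0.02 for Gbp7, -0.0800 for Isg15 and -0.0913 for Bst2, while Gbp2 had -0.22. With both libraries numbered 2 left out and the block kept, 0 members passed as well, against 0.171% of all genes. There Stat2 had 0.0105, Bst2 -0.0514 and Isg15 0.27. With FcCD70 2 alone left out and the block kept, the F test between numbers called 5 of 28 members (17.9%), Gbp3, Gbp2, Oas3, Gbp7 and Bst2, against 16.5% of all genes (1827 of 11083). That fit was chosen after seeing the data and has 1 residual degree of freedom. The members' share was again close to that over all genes, while the further inducible genes had 16 of 57 (28.1%).

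**Figure D5:**
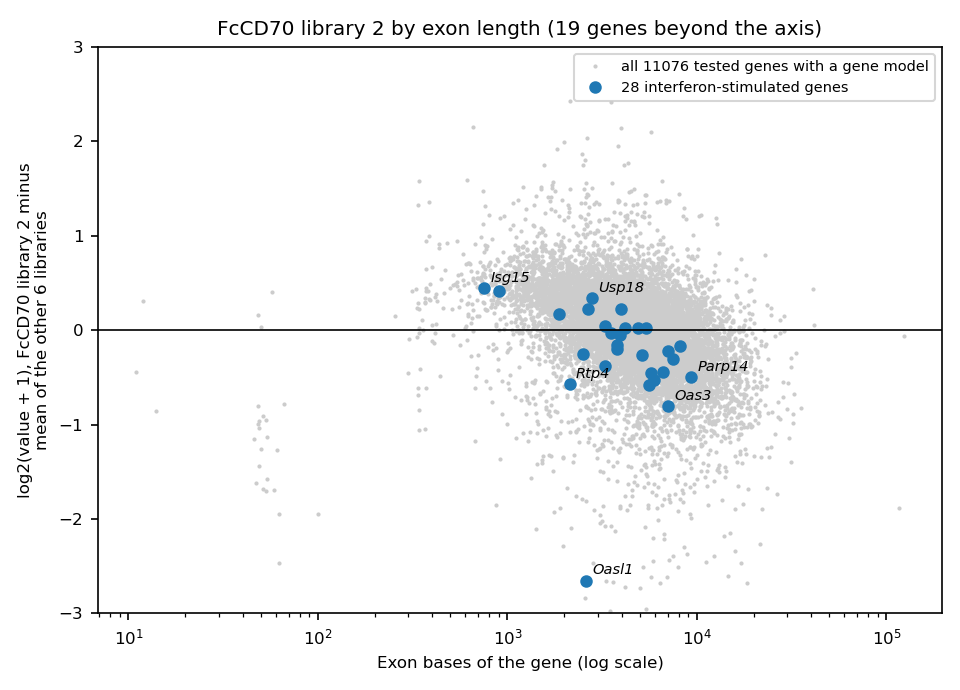
Exon bases of each gene (log axis) against the difference between the FcCD70 library numbered 2 and the mean of the other 6 libraries on log2(value + 1), for 11076 genes (grey) and 28 members (blue). Parp14 and Oas3 are low among long genes, Isg15 is high among short ones, and Oasl1 lies lowest.

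The labelled cell type was checked against its markers. All 8 Treg and T cell markers were detected, with a summed normalized count of 85254 to 90627 untreated and 79877 to 87656 with FcCD70, and Foxp3 had 2788 to 6585 over the 7 libraries, lowest in the FcCD70 library numbered 2. The list of plasmacytoid dendritic cells, a major source of type I interferon, summed to 433 to 640 untreated and 579 to 607 with FcCD70. Most of that was Tcf4 (392 to 604 over the 7 libraries), Ccr9 had 18.5 to 38.3, Siglech was at most 1.10, Cox6a2 at most 2.61 and Klk1 was listed at 0. The CD8 T cell list summed to 118 to 183 untreated and 149 to 201.1 with FcCD70, most of it Cd8b1, with Cd8a at most 13.1. Ncr1 of natural killer cells was listed at 0. The B cell list summed to 32847 to 35936 untreated and 32867 to 36913 with FcCD70, nearly all of it Ighm. The summed myeloid list (4 of 6 markers with a row) was 91.3 to 121 untreated and 63.5 to 105 with FcCD70, most of it Cd68, with Csf1r at most 3.03. The natural killer list was 6.05 to 17.6 and 22.8 to 27.0, most of it Eomes, which T cells also use. The groups of Eomes did not overlap (6.05 to 13.2 and 15.0 to 27.0), as in 2.53% of all genes. Eomes was low, with 96 reads over the 7 libraries, and did not pass. Its log2 fold change was 1.003 (SE 0.636, limma's adjusted p = 0.9998). The part of the cell types of these lists in the members' values was not tested.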

How the data were processed

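RNA was made into cDNA with a strand-marking mRNA kit, per the labels' protocols. The submitters' processing notes name TopHat2, SAMtools, HTSeq and DESeq2 and the build GRCm38.p4, without saying what each did. Which annotation was counted, and whether by strand, is not given in the sources used here. Reads may therefore be shared where genes overlap on opposite strands. The deposited library columns are a signal, read counts that the authors divided by 1 size factor per library: all values were whole multiples of 1 step (100% within 0.01), which gave back the reads. The authors' mean covers 8 libraries. The FcCD70 library numbered 4 is 8 times that mean less the 7 columns. The deposited log2 fold changes and their standard errors, the Wald score and the p-values come from DESeq2 per the file headers, coded untreated minus FcCD70; the sign was turned here.

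Genes with a mean of at least 10 were fitted on log2(value + 1) in limma 3.58.1 (trended variance), with treatment and replicate number as terms, because the deposited table is named as a paired analysis. This leaves 2 residual degrees of freedom, and untreated 4, without a partner, does not enter the fold change. Calls have a Benjamini-Hochberg adjusted p under 0.05 over all tested genes. Alternatives used edgeR (4.0.16) and DESeq2 (1.42.0) on the recovered reads, no block, a pseudocount of 5, no filter and left-out libraries. The fits were tested on simulated data. Exon lengths and positions are from GENCODE M21 (GRCm38), with all annotated exons joined, so that rare exons lower a level per kilobase. Depth was 18159685 to 23527899 reads. The members and lists were chosen with earlier results of these data known. Genes given with every library's value are the 3 members with the smallest p in each comparison, the 3 highest and 3 lowest per kilobase, Irf7, Irf9, Stat2, Irf1, Isg15, Ifit1, Usp18, Rsad2 and Gbp2, then the receptor chains, Ifnb1, Ifng and Socs1, and up to 2 others of each list by p; some of the last are given as ranges, and further names were chosen after their values were seen. Some genes that the rule or the lists hold are not reported here.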

Additional observations from a re-analysis of the deposited data

Results flagged for a closer look

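Among the 4 untreated libraries, a single library lay far from the other 3 in 4 of the 45 genes checked (by the gap to its nearest neighbour over the whole range, against Dixon's limit). Chance alone flags about 1 in 20 such groups where values follow a normal distribution, which very low counts do not. Ifit1, an RNA-binding antiviral effector, had 78.1 normalized counts in the untreated library numbered 1 and 54.4 to 55.5 in the others. Gbp5, a guanylate-binding protein, had 1325 in the same library, below the 1433 to 1451 of the others. Irf8, a transcription factor of the signalling list, had 550.2 there and 357 to 390 in the others, and the FcCD70 library numbered 1 had 545. Ifi44 had 0.870 in the untreated library numbered 4, which is 1 read, and 0 in the others. Its gap is then the whole range, so the flag of Ifi44 was fixed by that single read.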

How the results depend on the processing

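No member passed between FcCD70 and untreated under any of the 10 alternatives. Over all genes 0 passed with limma, with 188 at an unadjusted p under 0.05; DESeq2 called 1 and edgeR 0 (141 and 168 unadjusted), and left-out libraries gave 0 to 19 (19 without the libraries numbered 2, 6 without those numbered 3). With no replicate block the calls stayed at 0, and 1 member, Mx1, changed sign, to 0.14. Same-numbered libraries, as deviations from their group means, had correlations of 0.303, 0.0144 and 0.435 for numbers 1, 2 and 3. FcCD70 1 and FcCD70 3 each correlated best with the untreated library of the same number, but another untreated library came close. These were untreated 2 for FcCD70 1 (0.255) and untreated 4 for FcCD70 3 (0.347). For FcCD70 2 the correlations with the untreated libraries were all near 0 (-0.0369 to 0.0263). The labels do not say what a number marks. Between numbers, 0 members passed, and 0 to 6 with libraries left out. Without replicate 2 it was 6 of 28 (21.4%), against 16.3% of all genes. Without FcCD70 2 it was 5 of 28 (17.9%), against 16.5% of all genes. Both of those fits have 1 residual degree of freedom. All genes gave 15, against 0 with edgeR, 244 with DESeq2, 0 with no filter, 117 with 8 libraries and 39 to 1827 with libraries left out. The cause was not tested. The rebuilt library, and the fits without FcCD70 2, were chosen after seeing the data. Log2 fold changes of the opposite sign with the rebuilt library were Isg20 0.0229, Irf7 0.0647, Mx1 0.00868, Usp18 0.0973, Zbp1 -0.0209, Irf8 -0.0689. Without FcCD70 2 and with no replicate block they were Isg15 -0.0800, Irf1 -0.0205, Irf7 0.0379, Oas3 0.068, Mx1 0.26, Stat2 0.0498, Bst2 -0.0913, Dhx58 0.0177, Eif2ak2 0.00535, Parp14 0.0825, Trim25 0.0588, Gbp5 0.0395, Gbp7 0.0216, Ifnar1 0.12, Socs1 0.062. With each number left out in turn, those that changed sign ranged as follows: Ifit1 -0.0796 to 0.21, Ifit2 -0.0438 to 0.21, Isg20 -0.21 to 0.055, Irf7 -0.11 to 0.0832, Irf9 -0.12 to 0.0317, Oas3 -0.25 to 0.16, Oasl1 -1.30 to 0.16, Mx1 -0.48 to 0.19, Stat2 -0.21 to 0.0105, Bst2 -0.0514 to 0.23, Usp18 -0.25 to 0.17, Rtp4 -0.56 to 0.0509, Ddx58 -0.025 to 0.13, Dhx58 -0.17 to 0.12, Eif2ak2 -0.17 to 0.0457, Parp9 -0.0938 to 0.0513, Parp14 -0.18 to 0.10, Trim25 -0.18 to 0.0421, Gbp3 -0.13 to 0.0952, Gbp5 -0.22 to 0.0721, Gbp7 -0.26 to 0.12, Ifnar1 -0.17 to 0.0579, Socs1 -0.15 to 0.0825. Genes under about 10 normalized counts are limited by depth.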
